A study of Mus musculus with 12 samples.

Results

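The insulin-like growth factor (IGF) system was followed in Leydig cells, the testosterone-producing cells between the seminiferous tubules, after exposure of adult mice to a plasticiser. Its 10 genes were the ligands Igf1 and Igf2, the receptor Igf1r and the binding proteins Igfbp1 to Igfbp7. They were found by the gene name that the scanner files give each probe, which took 17 of 41174 probes and 35 of 43379 probe spots, or 10 of 27672 genes named on the array. Of these, 9 genes had a probe bright enough to be tested, among 15831 tested genes in all. Igfbp3 was the exception.

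IGF ligands signal through the receptor tyrosine kinase encoded by Igf1r, which acts through insulin receptor substrates on the PI3K-AKT and RAS-MAPK pathways. The binding proteins hold the ligands in extracellular fluid, and proteases such as pappalysin release them again. In the testis, IGF1 is known to promote Leydig cell maturation and steroid production, and Leydig cells make IGF1 themselves.

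The DEHP mice were male C57BL/6J mice given the plasticiser di-(2-ethylhexyl) phthalate (DEHP) by gavage for 21 days, at a daily dose of 200 mg per kg dissolved in corn oil. The vehicle mice were males of the same strain gavaged with corn oil alone. All were 21 weeks old, and the labels name no engineered allele. Leydig cells were cut from frozen sections of the right testis by laser capture, a method in which neighbouring cells can be lifted with the target. RNA from a single cap per mouse went through 2 rounds of amplification and was hybridised to two-colour Agilent arrays, on which the RNA of a DEHP mouse and of a vehicle mouse compete for the same 60-base probes. The 12 arrays compared DEHP mice 1 and 4 with vehicle mice 1, 2 and 4 in every pairing and both dye orientations, so the number of animals was 2 against 3. The labels speak of 4 mice per group, and the other mice are not analysed here.

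The 4 probes shown here were read as coding sequence in an open frame, and were chosen because they carry cysteine codons, which hold the folds of this family together, or the end of the protein. They are copied from the scanner files, which place them on mouse build mm7. Capitals mark cysteine codons in that frame, or the stop codon in the case of Igfbp2. The Igf1 and Igfbp2 probes passed the brightness filter, and the Igfbp3 and Igfbp4 probes did not.
Igf1, chr10:87471884-87471943 on the plus strand: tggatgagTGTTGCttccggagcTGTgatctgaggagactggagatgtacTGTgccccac
Igfbp2, chr1:73093964-73094023 on the plus strand: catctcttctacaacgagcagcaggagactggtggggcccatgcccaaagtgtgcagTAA
Igfbp3, chr11:7160474-7161483 on the minus strand: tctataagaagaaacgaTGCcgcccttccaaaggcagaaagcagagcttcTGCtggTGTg
Igfbp4, chr11:99157316-99157375 on the plus strand: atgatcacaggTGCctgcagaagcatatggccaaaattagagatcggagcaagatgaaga
The Igf1 stretch holds 4 cysteine codons, the Igfbp3 stretch 3 and the Igfbp4 stretch 1. The Igfbp3 probe covers its 60 bases over a genomic span of 1010 bases, so it crosses at least 1 splice junction. The other probes are given by position, since it was not settled here whether they lie in coding or untranslated sequence.

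By the scanner's flag, 45.4% to 54.4% of red readings and 35.5% to 46.1% of green readings exceeded background on an array. No spot of the IGF genes was saturated in any of 840 readings. Of the 8 Leydig cell markers, 6 were well above background in all 24 array channels, and the other two, Hsd17b3 and Lhcgr, in 22 and 17. Spermatid markers were also present, with 11 of 12 well above background in all 24 channels. Values below are log2 levels of a mouse from which the mean over all 5 mice was subtracted, unless another scale is named. On that scale, and across all tested genes, DEHP mouse 4 and vehicle mouse 1 correlated with each other at 0.53 and with the remaining mice at -0.73 to -0.55, a description in which the subtracted mean itself pushes values below 0. These extracts are bulk material, so fewer cells of a type and less RNA per cell cannot be told apart.

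None of the 9 tested IGF genes passed an adjusted p of 0.05 between DEHP and vehicle mice, and neither did any other of the 15831 genes (limma with Benjamini-Hochberg adjustment, 0% called, smallest adjusted p 1.00). At an unadjusted p under 0.05, 136 genes were counted (0.859% of those tested, 80 higher and 56 lower in DEHP mice), and Igfbp1 was the 1 IGF gene among them. Igfbp1 was also the 1 IGF gene of 9 whose DEHP and vehicle mice did not overlap, against 1452 genes or 9.17% of all tested. The difference of DEHP minus vehicle was below 0 for 5 IGF genes and above 0 for 4, where 51.7% of all genes lay below 0. The median difference was -0.05 over the 9 IGF genes and -0.01 over all genes, and the median standard error was 0.28 and 0.27. The count without overlap thus lies near the share over all genes, and the count at an unadjusted p rests on a single gene.

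**Figure D1:**
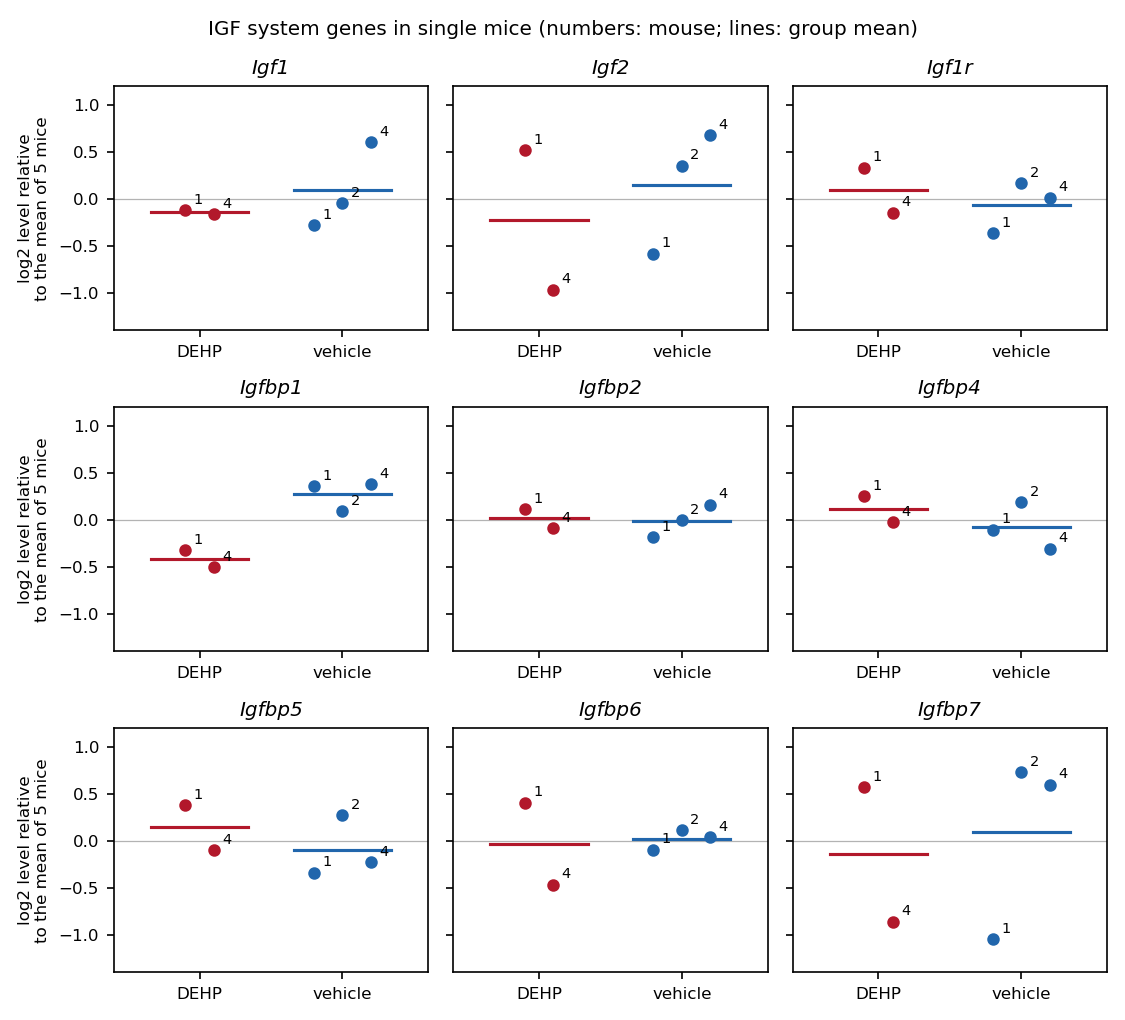
Log2 level of the 9 tested IGF genes by mouse, centred on the 5-mouse mean, with DEHP mice (red) left of vehicle mice (blue), mouse numbers beside the points and lines at the group means. Igfbp1 is the panel in which the groups do not overlap, and in the Igf2 and Igfbp7 panels DEHP mouse 4 and vehicle mouse 1 lie below the other mice.

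Igf1 encodes the ligand that growth hormone induces in many tissues. Its brightest probe (chr10:87488982-87489041, 10 spots per array) read -0.12 and -0.16 in DEHP mice 1 and 4, against -0.28, -0.05 and 0.60 in vehicle mice 1, 2 and 4. Vehicle mouse 4 stood above all others, and the other two vehicle mice lay on either side of the DEHP mice. The mean was -0.14 ± 0.03 in DEHP mice (SD, n = 2) and 0.09 ± 0.46 in vehicle mice (SD, n = 3). The difference was -0.23 (SE 0.30, 95% interval -0.99 to 0.52). Without vehicle mouse 4 the difference was 0.02. All arrays of that mouse were on slide 3, so for it animal and slide cannot be told apart. The within-slide differences were 0.08, -0.03 and -0.74 on slides 1, 2 and 3.

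The 10 Igf1 spots of an array had an SD of 0.03 log2 units at the median and 0.11 at most. The coding probe printed above also had vehicle mouse 4 highest, with -0.23 and -0.08 in DEHP mice against 0.02, -0.10 and 0.39 in vehicle mice 1, 2 and 4, and a difference of -0.26. The third Igf1 probe (chr10:87420848-87420907) was well above background in 8 of 12 DEHP channels and 7 of 12 vehicle channels, read 0.26 and -0.17 in DEHP mice against -0.38, 0.41 and -0.12 in vehicle mice, and differed by 0.07. Vehicle mouse 4 was thus highest by the first pair of probes and not by the third.

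Igf2 encodes the imprinted ligand best known for fetal growth. Its brightest probe (chr7:139078075-139078135 on the minus strand, 10 spots per array) read 0.52 and -0.96 in DEHP mice 1 and 4, against -0.58, 0.35 and 0.67 in vehicle mice 1, 2 and 4. The lowest reading of all belonged to a DEHP mouse, the next to a vehicle mouse, and the groups overlapped across most of their range. The mean was -0.22 ± 1.05 in DEHP mice (n = 2) and 0.15 ± 0.65 in vehicle mice (n = 3), which gave -0.37 for their difference (SE 0.56, 95% interval -1.77 to 1.02). Without DEHP mouse 4 the difference was 0.37, and without DEHP mouse 1 it was -1.11. The second Igf2 probe (chr7:139078490-139078549) was well above background in 1 of 12 DEHP channels and 5 of 12 vehicle channels, and spanned -0.12 to 0.06 over the 5 mice.

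**Figure D2:**
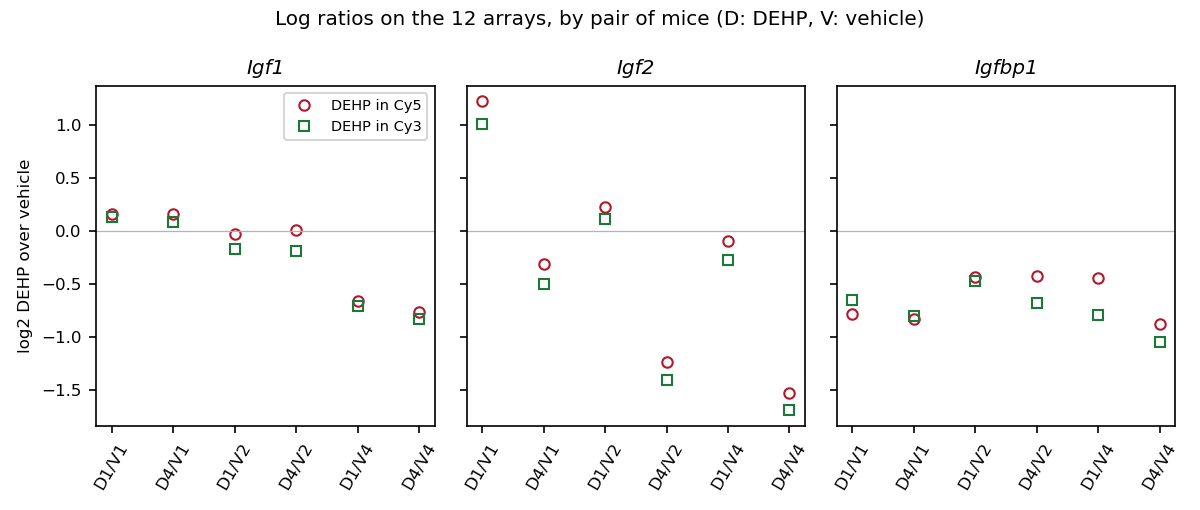
Log2 ratio of DEHP over vehicle on each of the 12 arrays for Igf1, Igf2 and Igfbp1, by pair of mice (D for DEHP, V for vehicle) and by the dye of the DEHP RNA. All Igfbp1 ratios lie below 0, for a gene that passed the brightness filter through the vehicle mice alone. The Igf1 ratios lie between -0.83 and -0.66 in pairs with vehicle mouse 4, and the Igf2 ratios follow the pair of mice with a median gap of 0.18 between dye orientations.

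On the single arrays, Igf1 ran from -0.83 to 0.16 and Igf2 from -1.69 to 1.23 in log2 DEHP over vehicle. The 2 dye orientations of a pair differed by a median of 0.07 for Igf1 and 0.18 for Igf2. For both ligands the ratio moved more with the pair of mice than between dye orientations. In pairs with vehicle mice 1 and 2 the orientations were on different slides, so dye and slide cannot be told apart there.

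Igf1r encodes the receptor that binds both ligands. Its probe (chr7:64082649-64082708) read 0.33 and -0.15 in DEHP mice 1 and 4, against -0.36, 0.17 and 0.01 in vehicle mice 1, 2 and 4. DEHP mouse 1 was the highest of the 5 mice, and DEHP mouse 4 lay within the range of the vehicle mice. The mean was 0.09 ± 0.34 in DEHP mice (n = 2) and -0.06 ± 0.27 in vehicle mice (n = 3), with a DEHP minus vehicle value of 0.15 (SE 0.27, 95% interval -0.50 to 0.81), which was -0.09 without DEHP mouse 1. A second probe named Igf1r was well above background in 0 of 12 DEHP channels and 2 of 12 vehicle channels. A further 2 probes are assigned to Igf1r by current synonyms. They are outside the rule since the files name them A330103N21Rik and D930020L01. They differed by -0.09 and -0.19, opposite in sign to the 0.15 above. The D930020L01 probe was well above background in 1 of 12 DEHP channels and 5 of 12 vehicle channels and did not pass the brightness filter. The A330103N21Rik probe (chr7:64088091-64088150) was brighter than the Igf1r probe used. Its mean log2 intensity was 8.95 in DEHP mice and 9.04 in vehicle mice, against 7.54 and 7.39. It read 0.56 and -0.67 in DEHP mice against -0.61, 0.29 and 0.43 in vehicle mice, with DEHP mouse 4 and vehicle mouse 1 again lowest.

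Igfbp1 encodes a binding protein best known as an insulin-suppressed product of the liver. Its single probe (chr11:7154447-7154506) read -0.32 and -0.50 in DEHP mice 1 and 4, against 0.36, 0.09 and 0.38 in vehicle mice 1, 2 and 4. Both DEHP mice lay below all 3 vehicle mice. The mean was -0.41 ± 0.13 in DEHP mice (n = 2) and 0.27 ± 0.16 in vehicle mice (n = 3). The difference was -0.69 (SE 0.20, 95% interval -1.19 to -0.18), with an adjusted p of 1.00 by limma over all genes. No fold is given, since the DEHP level was near background. All 12 arrays gave a ratio below 0, from -1.05 to -0.42, and the within-slide differences were -0.62, -0.65 and -0.79 on slides 1, 2 and 3. The arrays are repeated pairings of the same 5 mice, and slides 1 and 2 hold the same mice, so these values are not independent.

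The level of Igfbp1 was close to the background. The probe was well above background in 1 of 12 DEHP channels, in DEHP mouse 4, and in 12 of 12 vehicle channels. It therefore passed the brightness filter through the vehicle mice alone. A gene that passes in this way had to be lower in DEHP mice. Neither its place in the counts above nor the sign of its ratios on the arrays and slides is support for a difference. Its mean log2 intensity was 6.14 in DEHP mice and 6.83 in vehicle mice after an offset of 50 intensity units had been added, so the DEHP level is close to a floor. The difference was -4.08 with the scanner software's own background-subtracted signals and -0.72 with no background correction. Leaving out 1 mouse at a time gave -0.78 to -0.60. Treating the 12 arrays as independent, which ignores that they hold 5 animals, put Igfbp1 among 2121 genes past the threshold.

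Levels of 3 marker lists are set beside Igfbp1. The log2 of the summed intensity of 12 spermatid markers ran from 19.09 to 19.41 in DEHP mice and from 18.20 to 18.82 in vehicle mice, and 1 of the 12 had a difference below 0. The sum is carried by bright probes such as those of Prm1 and Prm2, the list median overlapped between the groups, and 2 of the 12 markers did not overlap. That of the 11 tested Sertoli cell markers, the nurse cells of the tubules, ran from 15.42 to 15.87 in DEHP mice and from 16.13 to 16.26 in vehicle mice, and 9 of the 11 had a difference below 0, while 2 of the 11 did not overlap. The Sertoli sum is likewise carried by bright probes such as those of Cst9, Amhr2 and Clu. Of these, Amhr2 and Clu were lowest in DEHP mouse 4 and vehicle mouse 1. Cst9 was not, with log2 levels (not centred) of 14.32 and 14.11 in DEHP mice 1 and 4. Its levels in vehicle mice 1, 2 and 4 were 15.14, 14.58 and 14.91. The Sertoli list median was -0.18 and -0.04 in DEHP mice, against 0.15, 0.16 and 0.04 in vehicle mice, and did not overlap. The sums of the spermatid and Sertoli lists did not overlap between the groups, and the counts of single markers stand against 9.17% of all genes. Peritubular myoid and smooth muscle markers had a median difference of -0.87, with 6 of 6 below 0, none of them without overlap, and a sum from 14.57 to 15.66 in DEHP mice and from 15.03 to 17.01 in vehicle mice. The part of these cells in the Igfbp1 result was not tested. None of the 4 liver transcripts with a probe (Alb, Apoa1, Ttr, Fga) was well above background in any of 24 channels.

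Igfbp2 encodes a binding protein with a preference for IGF2. Its probe, printed above to the stop codon, read 0.12 and -0.09 in DEHP mice 1 and 4, against -0.18, -0.01 and 0.16 in vehicle mice 1, 2 and 4. All readings lay close together and the groups overlapped. The difference was 0.02 (SE 0.21, 95% interval -0.49 to 0.54) and turned to -0.08 without DEHP mouse 1 and -0.06 without vehicle mouse 1.

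Igfbp3 encodes the main carrier of IGFs in serum. Both of its probes, the one printed above and one at chr11:7158599-7158658, were well above background in 0 of 12 DEHP channels and 0 of 12 vehicle channels. Igfbp3 transcript was therefore not detectable above background on these arrays, and no fold is given.

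Igfbp4 encodes the binding protein that pappalysin cleaves, and it was dim here. Its probe (chr11:99161059-99161118) was well above background in 9 of 12 DEHP channels and 8 of 12 vehicle channels. It read 0.25 and -0.03 in DEHP mice 1 and 4, against -0.10, 0.19 and -0.31 in vehicle mice 1, 2 and 4. The groups overlapped, and the difference was 0.19 (SE 0.24, 95% interval -0.40 to 0.77), or 0.79 with the scanner software's signals. The coding probe printed above was well above background in 0 channels of either group.

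Igfbp5 encodes a binding protein that attaches to extracellular matrix. Its probe (chr1:73100116-73100175) read 0.38 and -0.10 in DEHP mice 1 and 4, against -0.34, 0.28 and -0.22 in vehicle mice 1, 2 and 4. DEHP mouse 1 and vehicle mouse 2 were the high ones. The probe was well above background in 10 of 12 DEHP channels and 9 of 12 vehicle channels. The difference was 0.24 (SE 0.28, 95% interval -0.46 to 0.94), which was -0.00037 without DEHP mouse 1. A second probe (chr1:73102653-73102712) was well above background in 1 of 12 DEHP channels and 4 of 12 vehicle channels and differed by -0.06.

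Igfbp6 encodes the binding protein with the strongest preference for IGF2. Its probe (chr15:102135489-102135549) read 0.41 and -0.47 in DEHP mice 1 and 4, against -0.09, 0.12 and 0.04 in vehicle mice 1, 2 and 4. The DEHP mice enclosed all vehicle mice, with an SD of 0.62 in DEHP mice (n = 2) and 0.11 in vehicle mice (n = 3). The difference was -0.05 (SE 0.30, 95% interval -0.80 to 0.70), and 0.39 without DEHP mouse 4.

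Igfbp7 encodes a secreted, IGFBP-related protein with low affinity for IGFs that is abundant in vessel walls. Its probe (chr5:77280659-77280718) read 0.57 and -0.86 in DEHP mice 1 and 4, against -1.04, 0.73 and 0.60 in vehicle mice 1, 2 and 4. Each group held 1 mouse about a log2 unit below the mean, and the other readings lay close together above it. The mean was -0.14 ± 1.01 in DEHP mice (n = 2) and 0.10 ± 0.99 in vehicle mice (n = 3), and DEHP minus vehicle was -0.24 (SE 0.68, 95% interval -1.93 to 1.46). It turned positive with DEHP mouse 4 left out (0.48), with vehicle mouse 2 left out (0.08) and with vehicle mouse 4 left out (0.01), and was -0.05 when arrays were centred on their median in place of loess. The 2 dye orientations of a pair differed by a median of 0.56.

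**Figure D3:**
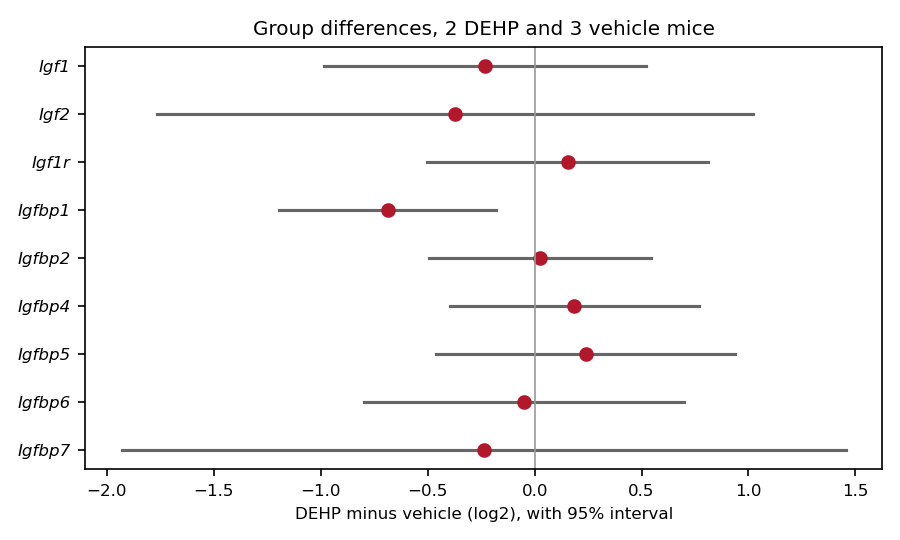
DEHP minus vehicle difference (log2) of the 9 tested IGF genes with its 95% interval from limma, 2 DEHP and 3 vehicle mice. The interval of Igfbp7 is the widest of the 9, from -1.93 to 1.46, and that of Igfbp1 runs from -1.19 to -0.18 for a gene that passed the brightness filter through the vehicle mice alone.

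**Figure D4:**
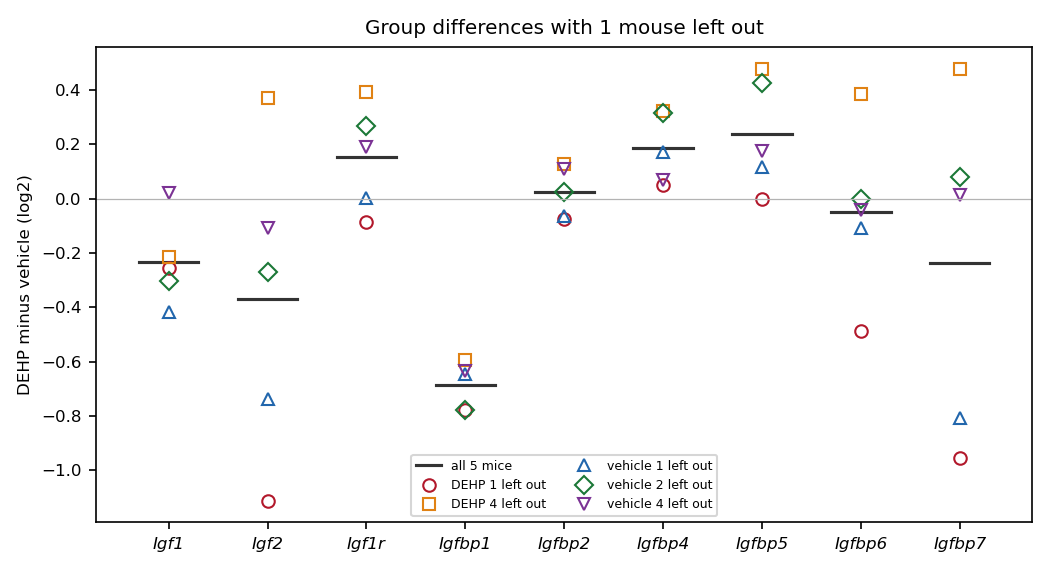
DEHP minus vehicle difference (log2) of each IGF gene with all 5 mice (bar) and with 1 mouse left out (symbols). Igf2 spans -1.11 to 0.37 and Igfbp7 -0.96 to 0.48. Igfbp1 lies between -0.78 and -0.60, a range that is no sign of stability since its DEHP level is near background.

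The extracts of single mice of the same group differed beyond array error in most IGF genes. A test on the 12 array log ratios, which sets 1 amplified extract per mouse against the error between arrays and compares neither conditions nor animals, called 8 of the 9 IGF genes between DEHP mice 4 and 1, where 77.4% of all genes were called. All 8 were lower in DEHP mouse 4, and Igf1 was the one not called. With median centring in place of loess, 4 of the 9 were called, and the share of all genes called in that setting was not counted. Igf2 was lower in DEHP mouse 4 by a log2 difference of -1.48 (SE 0.03, adjusted p 3.20e-11, limma), Igfbp7 by -1.44 (SE 0.05) and Igfbp6 by -0.87 (SE 0.04). Among all genes the same contrast gave 6506 lower and 5748 higher.

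Between vehicle mice 1 and 2, 8 of the 9 IGF genes were called, 7 lower and 1 (Igfbp1) higher in vehicle mouse 1, against 71.0% of all genes (6020 lower, 5221 higher). Without background correction the count was 5 of 9. Between vehicle mice 1 and 4 the count was 6 of 9, all lower in vehicle mouse 1, against 68.8% (5590 lower, 5307 higher). Between vehicle mice 2 and 4 it was 5 of 9 (3 lower, 2 higher in vehicle mouse 2), against 57.4% (4474 lower, 4611 higher), and 3 of 9 after scaling between arrays. With so many genes called, the counts set beside a share of all genes lie near the background and single out no IGF gene. For the counts without background correction and after scaling, the share of all genes called was not counted. The largest vehicle contrasts were those of Igfbp7, at -1.78 (SE 0.07) for vehicle mouse 1 minus 2 and -1.64 (SE 0.07) for vehicle mouse 1 minus 4.

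Igf2, Igf1r and Igfbp7 were low in the same mice in which cell type markers of the interstitium were low. These mice, DEHP mouse 4 and vehicle mouse 1, were also the lowest for Igfbp6 and, within a narrow range, for Igfbp2. The median of 8 Leydig cell markers, which include the steroidogenic enzymes and Insl3, was 0.75 and -0.81 in DEHP mice 1 and 4, against -0.46, 0.22 and 0.52 in vehicle mice 1, 2 and 4. Endothelial markers stood at 0.25 and -0.40 in DEHP mice, against -0.60, 0.44 and 0.16 in vehicle mice, and macrophage markers at 0.47 and -0.47 in DEHP mice, against -0.43, 0.02 and 0.45 in vehicle mice. Within the macrophage list Aif1 ran the other way. Its log2 levels, not centred, were 14.48 and 15.18 in DEHP mice 1 and 4, against 14.60, 14.11 and 14.11 in vehicle mice 1, 2 and 4. Peritubular myoid and smooth muscle markers stood at 0.07 and -0.95 in DEHP mice, against -0.36, 1.13 and 0.26 in vehicle mice.

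Spermatid markers ran the other way, at -0.0046 and 0.78 in DEHP mice 1 and 4 against 0.21, -0.65 and -0.42 in vehicle mice 1, 2 and 4. Spermatocyte markers stood at -0.22 and 0.34 in DEHP mice, against 0.19, -0.26 and -0.22 in vehicle mice. The log2 of the summed intensity of the Leydig cell list ran from 15.68 to 17.28 in DEHP mice and from 16.02 to 17.30 in vehicle mice, and all 8 markers passed the filter. The part of the cell makeup in the levels of the IGF genes was not tested.

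**Figure D5:**
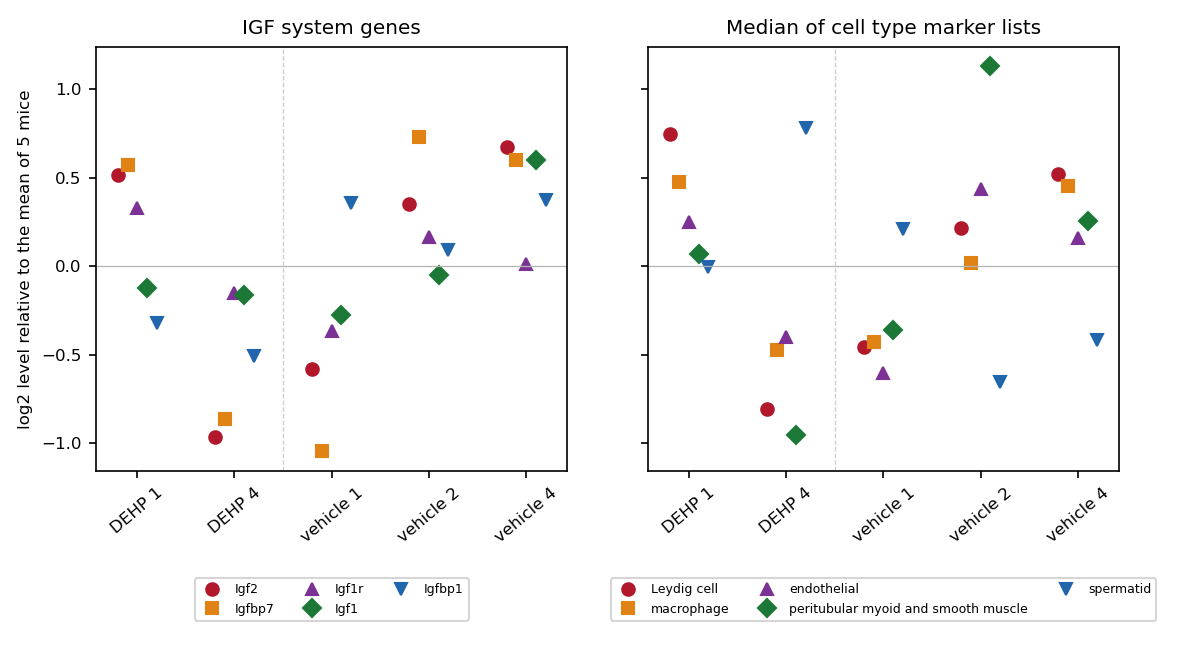
Left, log2 level of 5 IGF genes by mouse, and right, the median of marker lists of testis cell types in the same mice, both centred on the 5-mouse mean. Igf2 and Igfbp7 lie low in DEHP mouse 4 and vehicle mouse 1, as do the Leydig cell, macrophage and endothelial medians, while the spermatid median is highest there.

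The genes closest to an IGF gene over the 5 mouse values were named by the smallest root mean square distance, for the 3 IGF genes of highest mean intensity. Those nearest to Igfbp7 were Palmd at a distance of 0.054 log2 units, Srsf5 at 0.063 and Dhcr7, an enzyme of cholesterol synthesis, at 0.067. Those nearest to Igf2 were Idh3g at 0.045, a subunit of mitochondrial isocitrate dehydrogenase, Mtarc2 at 0.054 and Txndc17 at 0.061. Igf1 had Mat2b at 0.051, Ccng1 at 0.062 and Mmrn1 at 0.071 beside it. These are likenesses over 5 mice and 15831 genes, given as a description.

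Around the ligands and their receptor, a list of 45 genes covered the second IGF receptor, IGFBP proteases and their inhibitors, growth hormone signalling, the pathways below the receptor and the Igf2 mRNA-binding proteins. Of these, 44 had a probe and 37 were tested. The 37 include Pdk1, which encodes a pyruvate dehydrogenase kinase and belongs to none of these groups (difference -0.33). Over the 37, the difference was below 0 for 21 and above 0 for 16, with a median of -0.04 and a range from -0.53 to 0.56. None passed the adjusted threshold and 0 had an unadjusted p under 0.05 (limma). In 1 of the 37 genes the mice did not overlap between the groups, where 9.17% of all genes did not. So small a count in a short list is not read as a difference from that share. The gene without overlap was Ghr, the growth hormone receptor. It read 0.06 and 0.30 in DEHP mice 1 and 4 against -0.21, -0.15 and -0.0045 in vehicle mice 1, 2 and 4, a difference of 0.30 (SE 0.20).

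Igf2r, the receptor that clears IGF2, read -0.06 and -0.17 in DEHP mice against -0.38, 0.47 and 0.14 in vehicle mice, and differed by -0.19 (SE 0.29). Pappa, the protease pappalysin that cleaves IGFBP4, read -0.05 and 0.72 in DEHP mice against 0.31, -0.47 and -0.52 in vehicle mice, which is 0.56 higher in DEHP mice (SE 0.37). Its levels were high in DEHP mouse 4 and vehicle mouse 1, the mice in which Igf2 and Igfbp7 were low, and the groups overlapped.

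Stc2, a stanniocalcin that inhibits pappalysin, read 0.09 and -0.66 in DEHP mice against -0.32, 0.63 and 0.26 in vehicle mice, and differed by -0.48 (SE 0.37). Irs1, the substrate that links the receptor to PI3K, read 0.93 and -1.12 in DEHP mice against -1.23, 0.55 and 0.86 in vehicle mice, and differed by -0.16 (SE 0.84). Both were lowest in DEHP mouse 4 or vehicle mouse 1. Insr, the insulin receptor, and Igfals, the acid-labile subunit of the serum IGF complex, did not pass the brightness filter, and Irs2 was not matched to a probe by name.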

How the data were processed

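Per the file headers, Feature Extraction 9.5.1.1 gave each spot's mean and local background intensity, a processed intensity and a log10 ratio (used to check directions); deposited flags of 0 or 1 report detection over background, saturation and outliers. The authors' deposited value table holds log2 ratios for 13669 spots, with no statement of direction or scale. Against the scanner ratios its columns correlated at 0.915 to 0.993, with slopes of 0.842 to 0.932 and medians of -0.0569 to 0.004, and ran as DEHP over vehicle, while its filter stays unknown. It was matched by the spot's place in the scanner file. Limma is named, without a version, in the submitters' processing notes.

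The values used here were computed with limma 3.58.1 under R 4.3.3. The normexp method (offset 50) corrected background, arrays were normalized by loess without control spots, outlier spots (0.332% to 0.604%) were left out and spots of a probe were averaged. Least squares on the 12 log ratios gave 1 value per mouse and a dye effect. A probe passed if 2 or more mice had it well above background on 50% or more of their arrays, and the brightest such probe stood for its gene. The 5 mouse values were tested with lmFit and eBayes, with Benjamini-Hochberg adjustment over all tested genes at 0.05. Extracts were compared on the 12 log ratios. The functions were tested on simulated data. Slide and scan coincide. The number of mice limits the precision.

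Of the tested genes, 10551 were named by RefSeq accession, 1894 by symbol, 970 by an older symbol and 2416 as in the file. Positions are the files', on mm7. The IGF genes and all lists were chosen with earlier results of these data known. All IGF genes are named. Of the pathway list, those at an unadjusted p under 0.05 and 8 fixed ones were to be named. Ghr is also reported as the 1 gene without overlap, and Pdk1 because it lies outside the listed groups. Mouse numbers are shared by DEHP and vehicle mice 1 and 4, which are different animals. Deviations from each mouse's own group mean, across genes, correlated at -0.73 between the mice numbered 1 and -0.56 between those numbered 4. The deviations of DEHP mice 1 and 4 mirror each other exactly, so these values are not independent and a weaker pairing could not be seen. The mice were not treated as paired.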

Additional observations from a re-analysis of the deposited data

How the results depend on the processing

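With 5 mice, differences of the size of these standard errors are not detectable, and probes near background give compressed differences. No IGF gene and no gene in all passed the threshold under any alternative, with 1 exception: with the 12 arrays taken as independent, 2121 genes passed, 1 of them an IGF gene (Igfbp1, at -0.69). Directions turned for Igfbp2 with the scanner's processed signals (-0.068), on slide 1 alone (-0.0014) and on slide 3 alone (-0.15), for Igfbp7 with mouse number as a replicate block, which leaves out vehicle mouse 2 (0.080), and on slide 1 (0.28), for Igf1 (0.076) and Igfbp6 (0.011) on slide 1, and for Igfbp4 on slide 2 (-0.033). The block fit used DEHP mice 1 and 4 and vehicle mice 1 and 4, and its differences were those found without vehicle mouse 2. The cause of the other turns was not tested, and slides 1 and 2 each hold 1 dye orientation. The replicate block changed no call. Counts of IGF genes called between DEHP mice 4 and 1 were 4 of 9 with median centring, 4 of 5 with probes well above background on all arrays and 3 of 5 in the authors' table. Between vehicle mice 1 and 2 they were 5 of 9 without background correction, 5 of 5 with that filter and 4 of 5 in the authors' table, and between vehicle mice 2 and 4 they were 3 of 9 after scaling between arrays and 2 of 5 with that filter. The share of all genes called was not counted under these alternatives, so their counts have no background to be read against.

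Leaving out 1 mouse at a time, the difference ran from -0.42 to 0.021 for Igf1, -1.11 to 0.37 for Igf2, -0.086 to 0.39 for Igf1r, -0.78 to -0.60 for Igfbp1, -0.076 to 0.13 for Igfbp2, 0.05 to 0.32 for Igfbp4, -0.00037 to 0.48 for Igfbp5, -0.49 to 0.39 for Igfbp6 and -0.96 to 0.48 for Igfbp7. The median over the IGF genes ran from -0.25 without DEHP mouse 1 to 0.37 without DEHP mouse 4, and that of the pathway list from -0.11 to 0.07. Where a group was left with 1 mouse, that mouse was assumed to vary like the others. A dye effect per slide could not be fitted and was not run. A separate dye effect for slide 3, chosen after seeing the data, left the group differences of the IGF genes as they were. It had to, since each pair was run in both dye orientations, so this is no sign of stability. With it, the IGF genes called between extracts were 8 of 9 for DEHP mice 4 and 1, and 9, 5 and 6 of 9 for vehicle mice 1 and 2, 1 and 4, and 2 and 4. The share over all genes was not counted.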
